A study of Mus musculus with 20 samples.

Results

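The 33 genes described here encode hydrolases, activator proteins and membrane proteins of the lysosome other than cathepsins. They were taken by gene symbol from a list and not selected by an expression cutoff, but the list was chosen with earlier results of these data known. All 33 were found among the 16536 genes of one table and the 16140 genes of the other. RNA was sequenced from brain monocytes and microglia of mice 3 days after permanent photothrombosis, which models stroke by clotting cortical vessels with a dye and light. In Cxcr4-GFP reporter mice, 4 libraries came from GFP-positive monocytes and 4 from GFP-negative microglia, paired by animal or pool (a pair from 2 mice, a pair from a pool of 5 mice, and the others from 1 mouse each). In the Cxcr4CreER line, in which Cre recombinase acts after tamoxifen, 3 libraries each came from TdT-positive monocytes of conditional Cxcr4 knockout (KO) mice, TdT-positive monocytes of control mice, TdT-negative microglia of KO mice and TdT-negative microglia of control mice. The fluorescent label and the population coincide in every group, and the labels of the samples do not show that Cxcr4 was deleted in the TdT-negative microglia. The titles of all GFP libraries and of the KO libraries carry an unexplained tag, BrKo, while the control libraries carry BrC. No separate uninjured group is used here.

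The lysosome is the acidic compartment in which cells break down macromolecules taken up from outside or delivered by autophagy. Its soluble hydrolases remove sugars, sulfates and lipids one bond at a time, small activator proteins lift glycolipids out of membranes for them, and heavily glycosylated membrane proteins line the limiting membrane. Microglia and infiltrating monocyte-derived cells are the main phagocytes of the injured brain, where myelin and dead cells are a large part of the load, and inherited loss of many of these enzymes causes storage disease of the nervous system.

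Many lysosomal genes carry an E-box with the core CACGTG near their start, the core of the element recognised by the transcription factor TFEB. Of the 33 genes, 31 had a RefSeq promoter window (GRCm38.p6, 250 bases before to 50 after a start), and Npc1 and Asah1 had none. The palindromic core stood in the windows of 7 of these 31 genes (22.6%), against 8.09% of 27025 genes with a window. The longer form TCACGTGA, which contains that core, stood in 0 of 31, against 1.12% of all genes. These 7 genes were picked for holding the core, so sharing it is no finding about them. The stretches around it are shown 5′ to 3′ on the gene's strand, with each core in capitals. They lie at chr8:13159088-13159160 (plus strand) for Lamp1, chr9:114401018-114401047 (plus) for Glb1, chr11:119267811-119267840 (plus) for Gaa, chr11:101070009-101070038 (plus) for Naglu, chr11:119355522-119355551 (minus) for Sgsh, chr15:89477425-89477452 (minus) for Arsa and chr12:102439124-102439153 (minus) for Lgmn, and Lamp1 held 4 cores within 73 bases.
Lamp1: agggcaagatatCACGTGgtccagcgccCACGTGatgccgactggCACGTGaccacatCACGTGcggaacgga
Glb1: ctgcttctgagtCACGTGgcctacagaggc
Gaa: tttctgtgcgatCACGTGtttgactctgac
Naglu: caaccttcaggtCACGTGgcccgaggtcgg
Sgsh: gggcctgccgtgCACGTGaccgtggggagc
Arsa: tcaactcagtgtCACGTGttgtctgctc
Lgmn: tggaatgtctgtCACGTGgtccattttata

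None of the 4 members that passed the limma test between the populations over all libraries (Psap, Gm2a, Npc2 and Arsb, below) is among these 7. Lgmn, which is, did not pass it, although its groups did not overlap in GFP and KO mice. The 60 bases before the starts of Psap, Gm2a, Npc2 and Arsb are shown for comparison, at chr10:60277568-60277627 (plus), chr11:55097925-55097984 (plus), chr12:84773113-84773172 (minus) and chr13:93771619-93771678 (plus). Capitals mark GAGGAAG read on the opposite strand, a purine-rich core of the kind bound by the myeloid factor PU.1, which was searched on both strands after the expression results were known. It stood in 6 of 31 windows (19.4%), against 15.4% of all genes.
Psap: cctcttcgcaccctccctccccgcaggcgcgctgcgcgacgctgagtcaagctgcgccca
Gm2a: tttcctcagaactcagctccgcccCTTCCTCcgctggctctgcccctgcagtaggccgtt
Npc2: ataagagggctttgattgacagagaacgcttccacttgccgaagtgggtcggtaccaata
Arsb: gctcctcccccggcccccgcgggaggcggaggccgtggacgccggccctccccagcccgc

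Libraries held 0.617 to 14.9 M reads (M, 10 to the power of 6) in the GFP table and 9.73 to 56.8 M in the Cre table. The ribosomal precursor Rn45s made up 22.1% to 48.3% of GFP reads. Monocytes 3, microglia 3 and microglia 4 of the GFP table had fewer than 6000 detected genes, and 10, 2 and 7 of the 33 members were at 0 in them, while the other 5 GFP libraries had reads of every member. Cxcr4 had 1266 to 3017 normalized counts in GFP monocytes and 0 to 10.3 in GFP microglia. In the Cre table it had 536 to 1010 in KO monocytes, 1166 to 1332 in control monocytes, and at most 7.88 in any microglia library. The summed values of 10 microglial markers were 260 to 2217 in GFP monocytes and 12240 to 20370 in GFP microglia, and those of 10 monocyte markers were 4182 to 14720 in GFP monocytes and 4.99 to 305 in GFP microglia, with Ly6c2 and Chil3 at 0 in all GFP and all KO microglia libraries. In the Cre table, the 10 microglial markers summed to 8959 to 14800 in KO monocytes, 10340 to 13170 in control monocytes, 120700 to 164500 in KO microglia and 96100 to 162000 in control microglia. The 10 monocyte markers summed to 163700 to 218500 in KO monocytes and 2807 to 5592 in KO microglia. Control monocytes and control microglia of that table had 153100 to 194200 and 3351 to 8738. Neutrophil markers moved with the monocyte fraction there, summing over 10 genes to 40240 to 74820 in KO monocytes, 18030 to 42490 in control monocytes, 1373 to 4030 in KO microglia and 908 to 1924 in control microglia, with Ly6g, Ltf and Mmp8 at 0 in all microglia libraries of that table. In GFP mice the neutrophil markers summed to 418 to 1762 in monocytes and 892 to 1460 in microglia, which overlapped. Retnlg, Camp, Ltf and Ly6g were nevertheless at 0 in all GFP microglia libraries, while no neutrophil marker was at 0 in all GFP monocyte libraries. Of 6 markers of border-associated macrophages, F13a1 is also among the 10 monocyte markers. In the Cre table these 6 genes summed to 7672 to 11770 in KO monocytes and 6047 to 18790 in control monocytes. They summed to 895 to 1609 in KO microglia and 1207 to 3394 in control microglia, with Lyve1 at 0 in all 6 monocyte libraries of that table. The part of neutrophil and border-associated macrophage transcripts in the results was not tested.

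The 33 genes together took a similar share of the reads in both populations of GFP mice. Leaving out Rn45s, they took 2.29% to 2.47% of the reads in GFP monocytes and 2.25% to 2.69% in GFP microglia. In the Cre table they took 1.45% to 1.71% in KO monocytes and 1.16% to 1.35% in KO microglia, groups that did not overlap. That sum depends much on Gm2a, which took 31% to 38.8% of the members' reads in KO monocytes and 11.9% to 17.1% in KO microglia. Lgmn went the other way, with 9.42% to 10.6% and 20.6% to 26.5%. The separation is therefore not a trait of the 33 genes as a set. Control monocytes had 1.31% to 1.64% and control microglia 0.953% to 1.64%, which did overlap. Across the libraries of a group, the median coefficient of variation over the members was 46.6% in GFP monocytes, 61.5% in GFP microglia, 31.3% in KO monocytes, 39% in control monocytes, 22.5% in KO microglia and 37.7% in control microglia. Lamp2 varied least of the members in both monocyte groups of the Cre table, with 4.82% in KO and 8.24% in control monocytes, and Smpd1, acid sphingomyelinase, varied most in all 6 groups.

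**Figure D1:**
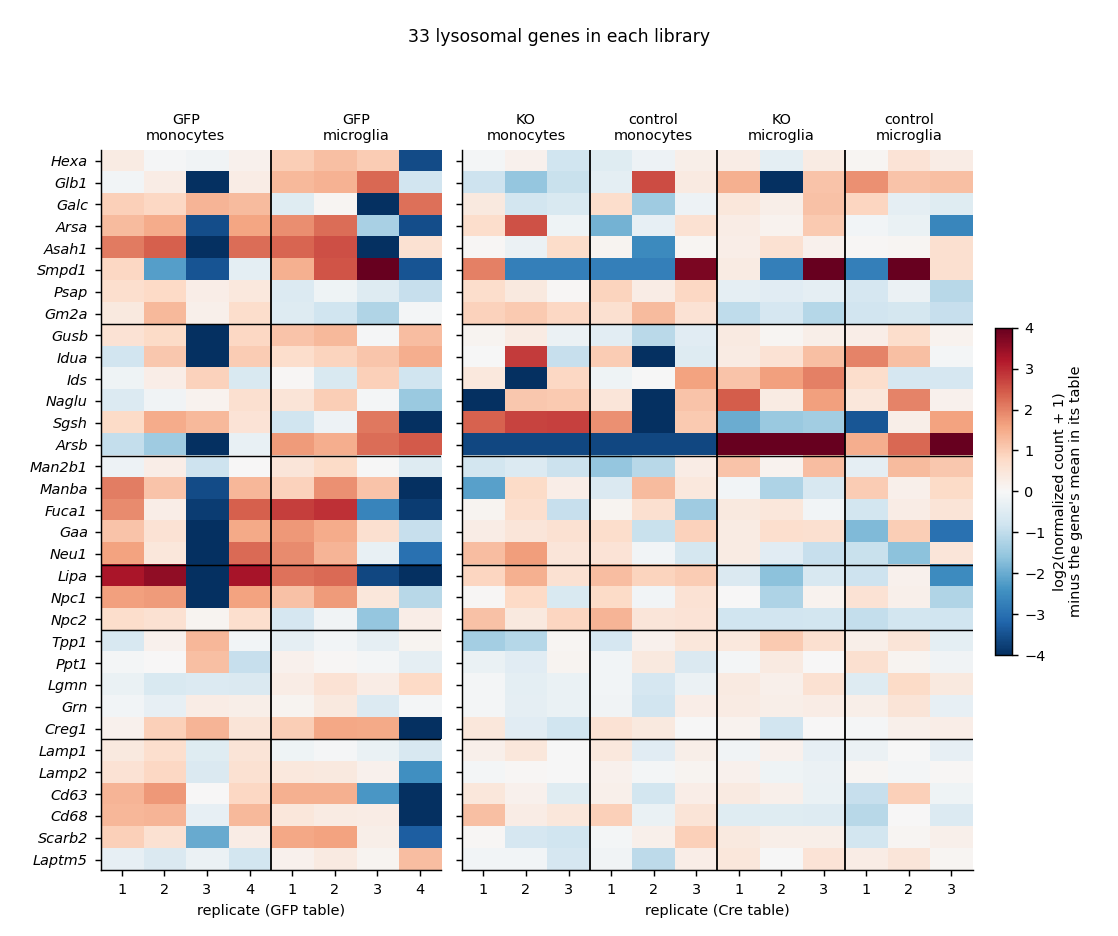
Each row is a gene, ordered by role, and each column a library; colour is log2(normalized count + 1) minus the gene's mean over its own table, with the scale ending at 4 in either direction. Arsb is at the low end in all 6 monocyte libraries of the Cre table, and GFP monocytes 3 and GFP microglia 3 and 4 hold most of the dark blue cells in the GFP table.

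The first question was which lysosomal genes differ between infiltrating monocytes and microglia. A small set of members did, and most did not pass the test. All values are normalized counts, tested on log2(value + 1) with limma and called where the p adjusted by Benjamini and Hochberg's method over all tested genes was under 0.05. In GFP mice, 1 of 33 members was called higher in monocytes and 1 lower, where 0.415% and 0.493% of all 7706 tested genes were. In control mice, 3 were called higher and 1 lower, against 3.46% and 3.06% of 12432 genes, and in KO mice 2 higher and 1 lower, against 3.85% and 2.98%. Those shares in KO mice are 479 genes higher and 370 lower, which CPM scaling turned to 375 and 460. The median log2 fold of the members was 0.20 in GFP mice, -0.13 in control mice and -0.09 in KO mice, beside 0.51, -0.24 and -0.25 over all genes tested. Arsb was the lowest member in each, also where its fold is only a bound, so it does not move these medians. In bulk samples, fewer cells of a type and less RNA per cell cannot be told apart.

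Groups of samples with no overlap were more frequent than calls. In GFP mice, 2 members were higher without overlap, against 5.22% of all genes, and 3 lower, against 4.19%. In control mice the counts were 4 and 2, against 9.6% and 12.5%, and in KO mice 7 and 8, against 12.7% and 14.8%. The log2 folds of 17 of the 33 members (51.5%) had the same sign in all 3 comparisons, 10 of them positive and 7 negative. Of 7251 genes tested in both tables, 43.9% had the same sign in all 3. Between the control and KO comparisons, which have no library in common, 27 of 33 members (81.8%) had the same sign, against 68.7% of those genes.

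**Figure D2:**
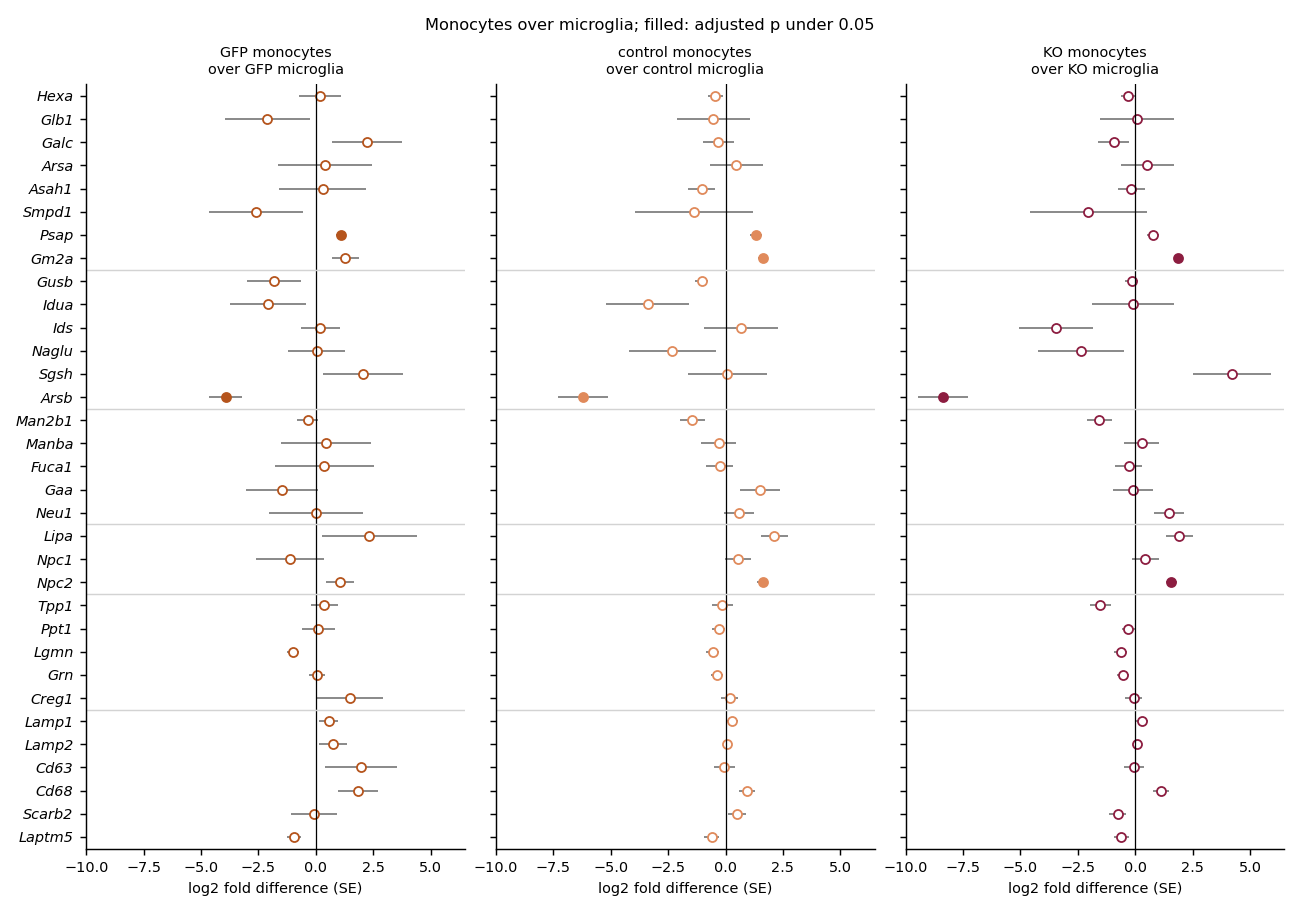
The log2 fold difference of monocytes over microglia with its standard error is plotted for each member, ordered by role, in GFP, control and KO mice; filled points have an adjusted p under 0.05. Psap, Gm2a and Npc2 lie to the right of 0 and Arsb to the left in all 3 panels, and the fitted Arsb folds of the Cre table come from monocyte groups at 0.

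Among the sphingolipid hydrolases and activators (8 members), the 2 whose products are activators without enzyme activity of their own were higher in monocytes. Psap encodes prosaposin, the precursor of the saposins that present sphingolipids to several hydrolases. Its values were 9286, 10030, 6940 and 7760 in GFP monocytes, against 3931, 5127, 4083 and 3060 in GFP microglia. Every monocyte library lay above every microglia library, and the log2 fold was 1.08 (SE 0.20, limma adjusted p = 0.00422). That call was lost without GFP microglia 4 (limma adjusted p = 0.0592) and in the count tests on recovered reads (adjusted p = 0.577 with edgeR and 0.911 with DESeq2), with log2 folds of 0.95, 0.98 and 1.07. In control mice Psap had 22780, 15260 and 21930 in monocytes, against 7779, 10530 and 5692 in microglia, again without overlap, with a log2 fold of 1.34 (SE 0.26, limma adjusted p = 0.00897). This call was lost under CPM scaling (adjusted p = 0.0515) and with only the 2 groups fitted (0.071), both by limma. In KO mice it had 20130, 15990 and 12720 in monocytes, against 9507, 9065 and 9640 in microglia. These groups did not overlap either, but the log2 fold of 0.77 (SE 0.26) missed the threshold at an adjusted p of 0.112. The difference between the KO and control folds was -0.58 on the log2 scale (95% interval -1.38 to 0.22). Psap made up 30.2% to 35% of the members' reads in GFP monocytes and 11.6% to 17.5% in GFP microglia, a share counted by reads and not per length.

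Gm2a encodes the GM2 activator, which lifts GM2 ganglioside out of membranes for hexosaminidase A. Control monocytes had 90810, 139000 and 85870, and control microglia 34160, 35350 and 30590. KO monocytes had 109000, 120000 and 103300, and KO microglia 28820, 36210 and 26190. In both genotypes each monocyte library exceeded each microglia library by more than the SD of either group. The log2 fold was 1.62 in control mice (SE 0.19, limma adjusted p = 0.000358) and 1.88 in KO mice (SE 0.19, limma adjusted p = 0.000145). In GFP mice Gm2a had 752, 1395, 650 and 931 in monocytes, against 400, 331, 249 and 536 in microglia, also without overlap. That log2 fold was 1.29 (SE 0.58) and was not called (adjusted p = 0.574).

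The enzymes of this role group were not called by limma in any of the 3 comparisons over all libraries. These were Hexa (hexosaminidase A, alpha chain), Glb1 (beta-galactosidase), Galc (galactosylceramidase, which degrades a main lipid of myelin), Arsa (arylsulfatase A), Asah1 (acid ceramidase) and Smpd1. Hexa had 280 to 392 in GFP monocytes and 25.2 to 719 in GFP microglia, where 3 of 4 libraries were at 615 or above. In the Cre table Hexa had a mean of 4043 ± 1304 in KO monocytes and 4918 ± 1287 in KO microglia, and 4191 ± 1055 in control monocytes and 5668 ± 985 in control microglia (SD, n = 3 each). The log2 folds of all 6 enzymes lay between -2.62 and 2.22 over the 3 comparisons.

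The glycosaminoglycan hydrolases (6 members) contained the largest difference. Arsb, arylsulfatase B, removes sulfate from dermatan and chondroitin sulfate. In GFP mice it had 419, 305, 21.2 and 659 in monocytes, against 2653, 2219, 3862 and 4503 in microglia. The lowest microglia library was above the highest monocyte library, with a log2 fold of -3.93 (SE 0.72, limma adjusted p = 0.00296). Without GFP microglia 3 the log2 fold was -3.84 (adjusted p = 0.0506 by limma) and without GFP microglia 4 it was -3.77 (0.124). In the Cre table no read of Arsb was found in any of the 6 monocyte libraries, while KO microglia had 197, 341 and 546 and control microglia 33.1, 60.1 and 197. Taking 3 reads summed over the group as the floor, Arsb in KO monocytes was at least 640-fold below the mean of KO microglia (limma adjusted p = 0.000747). In control monocytes it was at least 80.6-fold below the mean of control microglia (limma adjusted p = 0.00547). These bounds cover counting error only, not the spread among the microglia libraries. In the annotation GENCODE vM21, Arsb overlaps a microRNA gene on its own strand and 3 predicted or small RNA genes on the opposite strand, and strand-specific counting is not stated in the sources used here.

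Of the other glycosaminoglycan hydrolases, Gusb (beta-glucuronidase) came nearest to a call. Control monocytes had 2402, 1505 and 2335, against 3852, 5223 and 3573 in control microglia, without overlap (log2 fold -1.03, SE 0.28, limma adjusted p = 0.0535, 0.046 with a minimum of 50, 0.039 with upper quartile scaling, and 0.00376 with DESeq2). In KO mice the same gene had 3478, 4042 and 2718 in monocytes and 4135, 3358 and 3754 in microglia, which overlapped (log2 fold -0.15, SE 0.28). Sgsh (heparan N-sulfatase) had 92.8, 119 and 121 in KO monocytes, against 3.65, 5.62 and 6.03 in KO microglia, with no overlap. The log2 fold was 4.21 (SE 1.71, limma adjusted p = 0.196, and 0.0362 with DESeq2), and KO microglia held only 14 reads of Sgsh. In control mice Sgsh overlapped, with means of 33.7 in monocytes and 25.6 in microglia (log2 fold 0.08, SE 1.71). Ids (iduronate 2-sulfatase) lay the other way in KO mice, with 265, 0.75 and 351 in monocytes, against 434, 612 and 802 in microglia (limma adjusted p = 0.267). In control mice Ids overlapped, with a log2 fold of the opposite sign (0.69, SE 1.61). Idua (alpha-L-iduronidase) and Naglu (alpha-N-acetylglucosaminidase) overlapped between the populations in all 3 comparisons.

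No glycoprotein or glycogen hydrolase (5 members) was called by limma over all libraries. Man2b1, lysosomal alpha-mannosidase, had 1348, 1542 and 1230 in KO monocytes, against 4981, 2463 and 5277 in KO microglia, without overlap (log2 fold -1.55, SE 0.55, limma adjusted p = 0.127). Man2b1 was called there by DESeq2 (adjusted p = 0.0327) and by limma with only the 2 groups fitted (0.0416). In control mice it had 760, 1034 and 2782 in monocytes and 1748, 5440 and 4708 in microglia, which overlapped (adjusted p = 0.158, and 0.0482 without control monocytes 3, by limma). Neu1, the sialidase that trims sialic acid, had 1104, 1471 and 646 in KO monocytes and 590, 339 and 243 in KO microglia (adjusted p = 0.233). Gaa, the acid alpha-glucosidase that degrades glycogen, had 639.6, 208.5 and 735.2 in control monocytes, against 113.2, 773 and 47.8 in control microglia, which overlapped (log2 fold 1.51, SE 0.87, limma adjusted p = 0.381). In GFP mice Gaa had 155, 106, 0 and 204 in monocytes and 235, 201, 110 and 37 in microglia (adjusted p = 0.999). Manba (beta-mannosidase) and Fuca1 (alpha-L-fucosidase) overlapped between the populations in all 3 comparisons.

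Of the 3 genes for neutral lipid and cholesterol handling, Npc2 was called in both genotypes of the Cre table. Npc2 is the soluble protein that passes cholesterol on to the membrane protein Npc1. Control monocytes had 73430, 39880 and 41650 against 14740, 17350 and 16540 in control microglia, and the log2 fold was 1.62 (SE 0.24, limma adjusted p = 0.00215). KO monocytes had 65050, 37900 and 51720 against 16730, 16860 and 17290 in KO microglia, and the log2 fold was 1.57 (SE 0.24, limma adjusted p = 0.0026). The lowest monocyte library was above the highest microglia library in each genotype. In GFP mice Npc2 had 883, 832, 586 and 863 in monocytes and 336, 495, 184 and 649 in microglia, which overlapped (log2 fold 1.05, SE 0.60, limma adjusted p = 0.839).

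Lipa, the acid lipase that hydrolyses cholesteryl esters and triglycerides, was not called by limma over all libraries, although its groups in the Cre table did not overlap. It had 2368, 3466 and 1988 in KO monocytes, against 865, 410 and 830 in KO microglia (log2 fold 1.93, SE 0.59, limma adjusted p = 0.0782). Control monocytes had 3026, 2416 and 2635, against 721, 1441 and 224 in control microglia (log2 fold 2.12, SE 0.59, limma adjusted p = 0.0541, and 0.017 without control microglia 2). Lipa was called by DESeq2 in KO mice (adjusted p = 0.0121) and in control mice (0.0223). Limma also called it in KO mice with only the 2 groups fitted (0.0344), and in control mice with a pseudocount of 10 (0.0441) or a minimum of 50 (0.0451). In GFP mice it was at 424, 518, 0 and 431 in monocytes and 199, 208, 2.5 and 0 in microglia, so that the 3 libraries of few detected genes hold all its low values. Npc1, the cholesterol exporter of the limiting membrane, had log2 folds of -1.13, 0.55 and 0.45 in GFP, control and KO mice and was not called. GFP monocytes 3 was at 0 for Npc1, while the other GFP monocyte libraries had 448 to 484 and GFP microglia 68.2 to 486. Without the 3 libraries of few detected genes, its GFP log2 fold was 0.20.

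**Figure D3:**
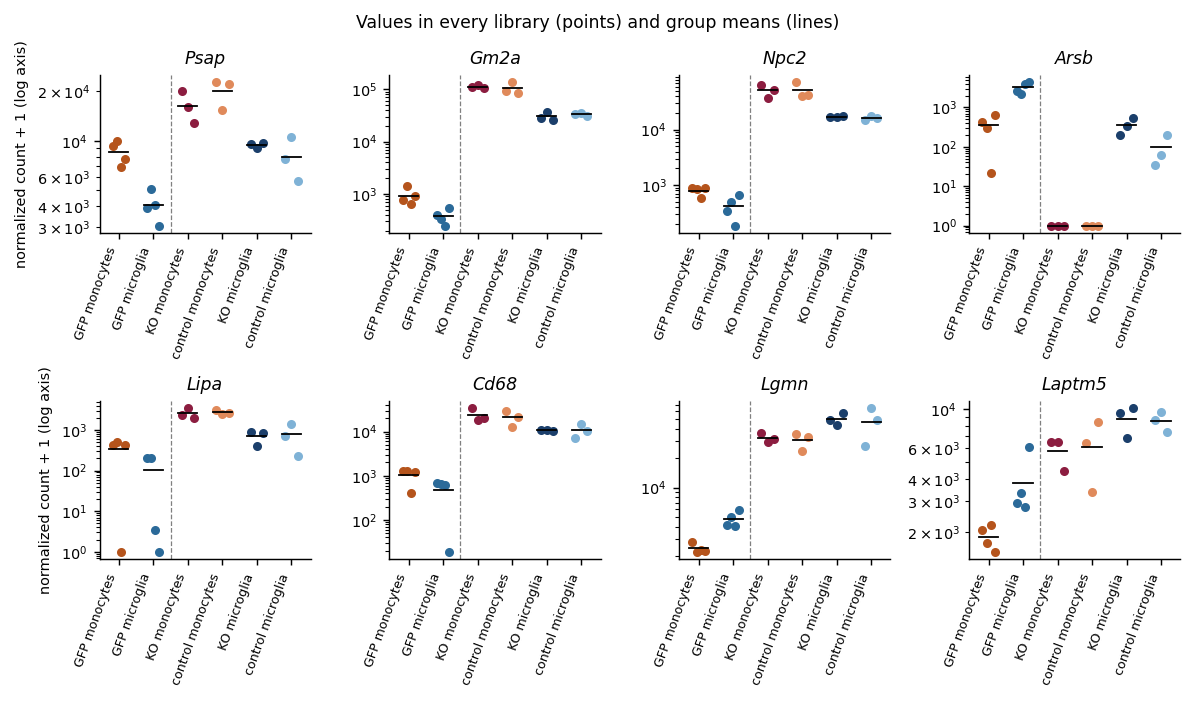
Points are libraries, horizontal lines group means, and the log axis shows normalized count + 1; the dashed line separates the GFP from the Cre table, whose levels are not comparable. The means of Psap, Gm2a, Npc2, Lipa and Cd68 lie above those of microglia in the monocyte groups of the Cre table and Arsb lies at 0 there, while the low points of Lipa and Cd68 in the GFP table belong to libraries of few detected genes.

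Among the proteases and other luminal proteins (5 members), Lgmn stood closest to the threshold. Lgmn encodes legumain, an asparaginyl endopeptidase that also processes cathepsins. It had 2785, 2202, 2313 and 2247 in GFP monocytes, against 4109, 5006, 4085 and 5877 in GFP microglia. The groups did not overlap, and the log2 fold was -0.99 (SE 0.25) with a limma adjusted p of 0.054. With the animal as a replicate block, Lgmn was called (limma adjusted p = 0.0499), which made 2 members lower in place of 1. KO monocytes had 35860, 29110 and 31520, against 48660, 43750 and 57980 in KO microglia, without overlap (log2 fold -0.64, limma adjusted p = 0.241), and control monocytes 34950, 23690 and 32720, against 26420, 64820 and 49470 in control microglia (log2 fold -0.55, limma adjusted p = 0.317, and -0.92 with 0.0332 without control microglia 1).

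Tpp1, tripeptidyl peptidase 1, had 835, 967 and 2238 in KO monocytes, against 2865, 4425 and 3355 in KO microglia, without overlap (log2 fold -1.52, SE 0.44, limma adjusted p = 0.0656, 0.0273 without KO monocytes 3, 0.0469 with CPM scaling, and 0.0257 with DESeq2). In control mice its groups overlapped, with means of 2228 ± 802 in monocytes and 2400 ± 729 in microglia (SD, n = 3 each; log2 fold -0.13, limma adjusted p = 0.912). Grn, progranulin, had 12980, 10850 and 11500 in KO monocytes, against 17460, 16230 and 17190 in KO microglia (log2 fold -0.53, limma adjusted p = 0.317). Ppt1 (palmitoyl-protein thioesterase 1) and Creg1 overlapped in all 3 comparisons.

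None of the 6 membrane proteins was called by limma over all libraries. Cd68, a heavily glycosylated protein of phagocyte lysosomes and a common macrophage marker, had 34310, 18520 and 20500 in KO monocytes, against 10790, 10800 and 10430 in KO microglia, without overlap (log2 fold 1.14, SE 0.35, limma adjusted p = 0.0784, and 0.0216 with DESeq2). Control monocytes had 28960, 12510 and 21420, against 7035, 15130 and 10270 in control microglia, which overlapped (adjusted p = 0.151). Laptm5, a transmembrane protein of haematopoietic cells, had 2049, 1734, 2202 and 1539 in GFP monocytes, against 2934, 3338, 2762 and 6121 in GFP microglia, without overlap (log2 fold -0.94, SE 0.30, limma adjusted p = 0.2).

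Lamp1 and Lamp2, the main structural proteins of the lysosomal membrane, were not called by limma over all libraries. Lamp2 averaged 9905 ± 477 in KO monocytes and 9558 ± 1416 in KO microglia, and 10520 ± 867 in control monocytes and 10070 ± 590 in control microglia (SD, n = 3 each). Its log2 fold was 0.06 in both genotypes, with a 95% interval of -0.32 to 0.44 in KO mice and -0.32 to 0.45 in control mice. Lamp1 averaged 7813 ± 1268 in KO monocytes and 6299 ± 1140 in KO microglia, with a log2 fold of 0.31 (95% interval -0.26 to 0.89). In GFP mice the log2 fold was 0.73 for Lamp2 (95% interval -0.52 to 1.99) and 0.56 for Lamp1 (-0.28 to 1.40), and Lamp1 was called there without the libraries of few detected genes. Scarb2, the receptor that carries glucocerebrosidase to the lysosome, lay lower without overlap in KO monocytes (1167 to 2094) than in KO microglia (2400 to 2680), at a limma adjusted p of 0.298. In control mice Scarb2 overlapped, with a log2 fold of the opposite sign (0.51, SE 0.38). Cd63, a tetraspanin of late endosomes, overlapped in all 3 comparisons.

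The 3 GFP libraries of few detected genes decide most of the GFP result. Without them, 3 monocyte and 2 microglia libraries remained, and 32 members were tested, Smpd1 falling below the filter. The microglia libraries left came from 2 and from 5 mice, and no microglia library of a single mouse remained. In that fit 7 members were called higher in monocytes and 5 lower, where 7.71% and 6.86% of 7264 tested genes were, and the members' median log2 fold was -0.26, beside -0.05 for all genes. Those called higher were Gm2a (log2 fold 1.44, limma adjusted p = 0.0038), Galc (1.23), Lipa (1.16), Npc2 (1.07), Psap (0.999), Cd68 (0.93) and Lamp1 (0.63). Those called lower were Arsb (-2.46, limma adjusted p = 0.00018), Scarb2 (-0.96), Hexa (-0.95), Lgmn (-0.92) and Laptm5 (-0.83). Lipa had 424 to 518 in these 3 monocyte libraries and 199 to 208 in the 2 microglia libraries, and Cd68 1219 to 1289 and 633 to 682. Hexa had 300 to 392 in the monocytes and 615 to 719 in the microglia.

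The second question was whether these genes differ with the Cxcr4 knockout, in which the Cxcr4 transcript was still present in KO monocytes (536 to 1010, against 1166 to 1332 in control monocytes) and near 0 in microglia of both genotypes. No member was called by limma between KO and control monocytes, where 0.0402% of 12432 genes were called in either direction, nor between KO and control microglia, where 0.0322% were. Without adjustment, 2 of 33 members had p under 0.05 in monocytes (Gusb and Scarb2), as had 756 of 12432 genes, and 0 in microglia, where 439 genes had. On recovered reads, edgeR called 0 genes in either comparison. DESeq2 called 183 genes higher and 155 lower in monocytes and 64 higher and 44 lower in microglia, none of them a member. The median log2 fold of the members was 0.02 in monocytes and 0.10 in microglia, beside 0.05 for all genes in each.

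The width of the interval on the genotype difference varied among the members that separated the populations. Gm2a differed by 0.11 on the log2 scale between KO and control monocytes (95% interval -0.30 to 0.52), and Npc2 by 0.02 (-0.51 to 0.56). Psap differed by -0.30 (-0.86 to 0.27) and Cd68 by 0.25 (-0.51 to 1.01). In microglia, the KO over control difference was -0.15 for Gm2a (-0.56 to 0.26), 0.07 for Npc2 (-0.47 to 0.60) and 0.28 for Psap (-0.29 to 0.84). For Arsb in microglia it was 2.17 (-0.21 to 4.54), and in monocytes, where both genotypes were at 0, no difference can be given. For low members such as Smpd1, Idua and Ids the intervals spanned more than 6 log2 units.

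Gusb and Sgsh were higher without overlap in KO than in control monocytes, where 4.67% of all genes were, and Glb1 was lower without overlap, where 4.15% were. Gusb had 3478, 4042 and 2718 in KO monocytes, against 2402, 1505 and 2335 in control monocytes (log2 fold 0.73, SE 0.28, limma adjusted p = 0.762). Scarb2 had 2094, 1288 and 1167 in KO monocytes, against 1946, 2333 and 3946 in control monocytes, which overlapped (log2 fold -0.84, limma adjusted p = 0.814). The summed neutrophil markers were higher in KO than in control monocytes with a small overlap, as given above, and their part in these values was not tested.

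In microglia, Arsb, Arsa, Scarb2 and Ids were higher without overlap in KO than in control mice, where 5.24% of all genes were, and Manba was lower without overlap, where 4.22% were. Ids had 434, 612 and 802 in KO microglia, against 320, 124 and 123 in control microglia (log2 fold 1.81, SE 1.61, limma adjusted p = 1). Manba had 481, 221 and 333 in KO microglia, against 1038, 601 and 887 in control microglia (log2 fold -1.32, SE 0.76, limma adjusted p = 1). The lowest KO value of Arsb, 197, and its highest control value, 196.5, lay side by side. Scarb2 had 2680, 2407 and 2400 in KO microglia, against 1219, 2174 and 2349 in control microglia.

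The genotype difference was also compared between the populations. No member and 0% of all genes were called for this interaction by limma, and 3 members and 590 of all genes had an unadjusted p under 0.05. On recovered reads, edgeR called 0 genes and DESeq2 138 higher and 138 lower, none of them a member. Scarb2 had an interaction of -1.27 on the log2 scale, Tpp1 of -1.39 and Gusb of 0.88, all with a limma adjusted p of 0.999.

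**Figure D4:**
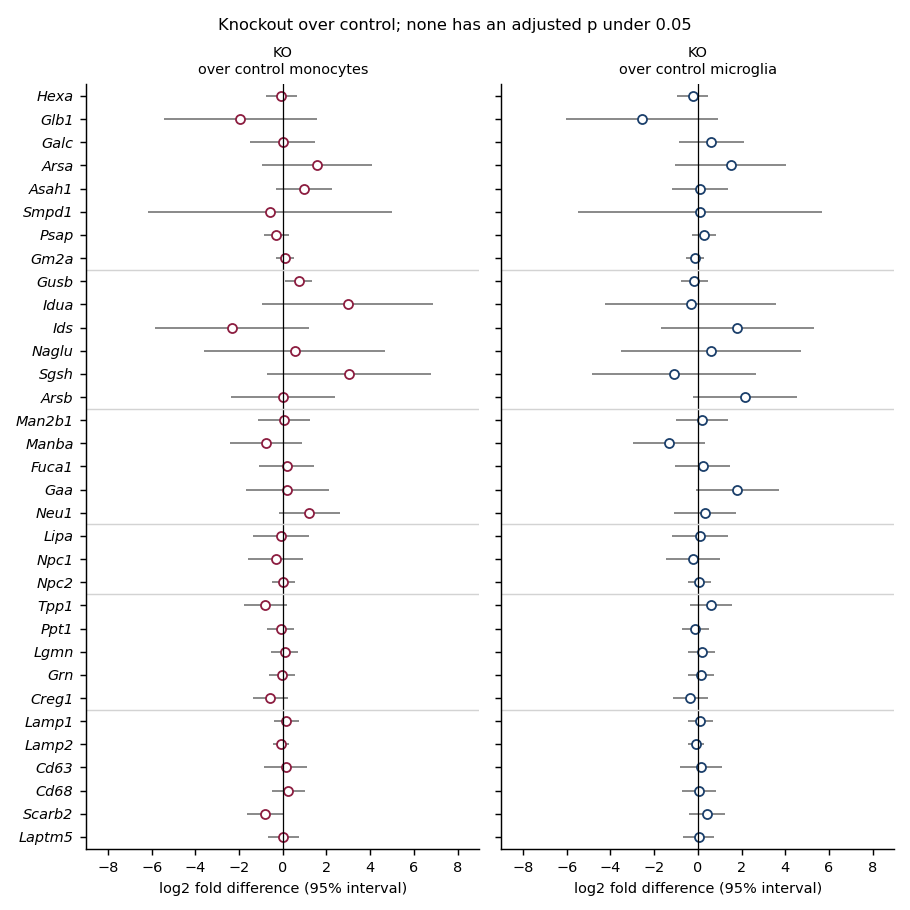
The log2 fold difference of KO over control is plotted with its 95% interval for each member in monocytes (left) and microglia (right), ordered by role. No member has an adjusted p under 0.05; intervals are narrow for Lamp2, Gm2a and Npc2 and wide for Smpd1, Idua and Naglu.

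Other genes of the lysosome were read from 6 lists. Among 12 cathepsins, Ctsl, which encodes the cysteine protease cathepsin L, was lower in monocytes of both genotypes, with means of 10410 ± 1846 in KO monocytes and 40110 ± 7550 in KO microglia (log2 fold -1.94, SE 0.19, limma adjusted p = 0.000145), and 10040 ± 1021 in control monocytes and 42670 ± 4664 in control microglia (log2 fold -2.09, SE 0.19, limma adjusted p = 9.1e-05). Ctsb was higher in control monocytes, with 63010 ± 11290 against 33050 ± 9247 in control microglia (adjusted p = 0.0194 by limma). So was Ctsk, with 471 ± 149 against 0 in control microglia, a mean at least 567-fold above a floor of 3 reads. In KO mice Ctsk had 0 to 588 in monocytes and 0 to 69.8 in microglia, which overlapped, and no cathepsin was called higher there. None of the cathepsins was called in GFP mice, where Ctsd and Ctse had the smallest p.

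Of 26 other lysosomal hydrolases, 22 were tested in GFP mice, where limma called 0 higher in monocytes and 1 lower (0.415% and 0.493% of all genes), and 4 had an unadjusted p under 0.05. In control mice 2 were called higher and 2 lower (3.46% and 3.06% of all genes), and in KO mice 3 higher and 2 lower (3.85% and 2.98%). Acp5, tartrate-resistant acid phosphatase, had 1214 to 2824 in KO monocytes and 0 to 11.9 in KO microglia, and 1385 to 2388 in control monocytes and 0 to 0.854 in control microglia. Plbd1 had 1990 to 5881 in KO monocytes and 0 to 13.1 in KO microglia, and 2281 to 4385 in control monocytes and 0 to 0.703 in control microglia. Rnaset2b was lower in control monocytes (4488 ± 386 against 10000 ± 3074 in control microglia), with reads that can be split with its near-identical copy Rnaset2a. Arsg was lower in KO monocytes, with 0 to 0.75 against 128 to 219 in KO microglia.

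Of 10 genes for mannose 6-phosphate sorting, which tags hydrolases for delivery to the lysosome, Igf2r was called in both genotypes. Igf2r encodes the cation-independent mannose 6-phosphate receptor and averaged 5561 ± 1407 in KO monocytes and 213 ± 175 in KO microglia (log2 fold 4.97, SE 0.66, limma adjusted p = 0.000862). It averaged 7071 ± 4797 in control monocytes and 130 ± 70.2 in control microglia (log2 fold 5.72, SE 0.66, limma adjusted p = 0.000358). In GFP mice 0 of 8 tested genes of this list were called.

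Among 18 subunits of the V-ATPase, the proton pump that acidifies the lysosome, only Atp6v0e was called in KO mice. It was higher in KO monocytes (12040 ± 2470 against 4992 ± 884 in KO microglia). Log2 folds were positive for 16 subunits in KO mice and 13 in control mice, against 5356 and 5397 of 12432 genes. In KO mice 10 subunits were higher without overlap and 1 lower (12.7% and 14.8% of all genes), and in control mice 3 and 2 (9.6% and 12.5%). In control mice Atp6v1a was higher in monocytes (6271 ± 637 against 2910 ± 822 in control microglia) and Atp6v0a1 lower (16.5 ± 12.8 against 309 ± 52.9). Of 16 regulators of lysosomal genes, Tfe3, a relative of TFEB, was called lower in control mice, with 52.5 ± 68.6 in monocytes and 660 ± 296 in microglia. Of 28 other lysosomal membrane proteins, Litaf was higher and the potassium and proton channel gene Tmem175 lower in control monocytes, and Tmem175 and Cd164 were lower in KO monocytes. Tmem175 had 0 to 0.75 in KO monocytes and 63.6 to 447 in KO microglia, and 0 to 16.6 in control monocytes and 281 to 726 in control microglia. In KO mice no regulator was called. In GFP mice no gene of the V-ATPase, regulator or membrane lists was called by limma, with 2, 1 and 0 genes at an unadjusted p under 0.05. No gene of the 6 lists was called by limma between KO and control cells of either population, and at most 2 genes of any list had an unadjusted p under 0.05.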

How the data were processed

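The values analysed are a signal in normalized counts per gene, which the authors made with DESeq2, per the submitters' processing notes. Those notes name CASAVA 1.82 for the GFP table (total RNA, Nugen Ovation SoLo, per the labels' protocols) and bcl2fastq 2.20 and kallisto for the Cre table (polyA RNA, SMART-Seq2). The annotation and its build were not named, that is, not given in the sources used here. A read is worth 0.104 to 2.58 normalized counts, and 100% of the non-zero values in each library came out as whole reads (tolerance 0.01), which were recovered for count tests. Levels are not compared across the 2 tables, whose normalization was separate.

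Genes that reached 10 normalized counts in 4 GFP or 3 Cre libraries were tested with limma 3.58.1 (R 4.3.3) on log2(value + 1) with an intensity trend, two-sided, with Benjamini-Hochberg adjustment over all genes tested. That left 7706 and 12432 genes and all 33 members in each. Fold changes on this scale are drawn toward 0 by the added 1 where all values are low. A single library near 0 can instead enlarge or reverse them. In GFP mice, for example, Npc1 had a log2 fold of -1.13 with a mean of 348 in monocytes and 273 in microglia. The Cre table was fitted with 4 groups sharing 1 estimate of the spread. The alternatives were no filter, a pseudocount of 10, a minimum of 50, upper quartile and CPM scaling (computed from the recovered reads, in GFP without Rn45s), edgeR 4.0.16, DESeq2 1.42.0, the animal as a replicate block, each library left out, the 3 GFP libraries of few detected genes left out, and only the 2 groups compared. Titles tie each GFP pair to an animal or pool and 4 Cre pairs to an animal, so libraries are paired there; their deviations from group means correlated at -0.113 to 0.238 (GFP) and -0.0555 to 0.00955 (Cre). Floors and intervals on reads cover counting error only.

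Called members are given with fold, standard error and adjusted p, others by level. Uncalled members are named where their role group has no called member, their groups do not overlap or they have the smallest p of their group. From the pathway lists, up to 4 called genes with the smallest p are named; an item of one list is not reported here. Members, lists and rules were chosen with earlier results of these data known. Promoter windows are from RefSeq (GRCm38.p6). In GENCODE vM21, 13 of 33 members overlap another gene and 8 of these a protein-coding gene (Lamp1, Hexa, Glb1, Npc1, Grn, Ppt1, Sgsh and Idua). The overlap was taken over whole gene spans, introns included. Strand-specific counting is not stated, and whether any reads fall in shared sequence was not tested.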

Additional observations from a re-analysis of the deposited data

Results flagged for a closer look

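In the groups of 4 libraries, 66 sets of member values (33 genes in GFP monocytes and GFP microglia) were checked for a single library far from the others, and 5 stood out by Dixon's criterion, where chance gives about 1 in 20. GFP monocytes 3 had 2.64 normalized counts of Gusb, where the other 3 monocyte libraries had 306 to 364. The same library had 0 of Npc1, against 448 to 484, and 399 of Cd68, against 1219 to 1289. GFP microglia 4 had 25.2 of Hexa, where the other 3 microglia libraries had 615 to 719, and 17.8 of Cd68, against 613 to 682. Both are among the 3 libraries with fewer than 6000 detected genes.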

How the results depend on the processing

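Over the alternatives run, no called member changed direction. Gm2a and Npc2 were called higher and Arsb lower in all 15 alternatives of the control and of the KO comparison, and Psap in 13 of 15 of the control comparison, missing the threshold under CPM scaling and when only the 2 groups were fitted. In GFP mice Arsb was called in 15 of 17 alternatives and Psap in 13. Members higher in GFP monocytes were 1, but 0 with a minimum of 50, with edgeR and with DESeq2, and 7 when the 3 low-detection libraries (under 6000 genes) were left out; members lower were 1, but 2 with the animal as a replicate block and 5 without those 3 libraries. Leaving out single GFP libraries gave 0 to 1 higher and 0 to 1 lower: without microglia 4 neither was called, and without microglia 3 Arsb was not. In control mice, members higher were 3, but 4 with a pseudocount of 10, a minimum of 50 and DESeq2 (Lipa added), 2 with CPM scaling and with only the 2 groups, and 3 to 4 over the libraries left out; members lower were 1, but 2 with a minimum of 50, upper quartile scaling and DESeq2 (Gusb added), and 1 to 2 over the libraries left out. In KO mice, members higher were 2, but 5 with DESeq2 and 4 with only the 2 groups; members lower were 1, but 2 with CPM scaling, 3 with DESeq2 and 2 with only the 2 groups, and 1 to 2 over the libraries left out. The causes were not tested. The replicate block changed no other call. Genotype comparisons had 0 called members under every alternative run.

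The median log2 fold of all genes in GFP mice, 0.51, was 0.44 with upper quartile scaling, 0.16 with edgeR on recovered reads, -0.09 without GFP microglia 4 and 1.43 without GFP monocytes 3. The edgeR fit changes the model as well as the scaling. The members' median there, 0.20, was 0.15, -0.06, -0.59 and 0.81 under the same settings. In KO mice the median of all genes was -0.49 with CPM scaling, beside -0.25. Members of few reads, such as Smpd1, Sgsh and Arsa, have wide intervals, and an adjusted p above the threshold does not show that they do not differ. Separate tamoxifen, sex or sort details are not given in the labels.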

Other observations

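The members' reads were divided differently in the total RNA libraries of the GFP table and the polyA libraries of the Cre table. Arsb took 7.59% to 17.1% of the members' reads in GFP microglia but 0.0899% to 0.249% in KO microglia and 0.0181% to 0.098% in control microglia. Gm2a took 2.78% to 4.87% in GFP monocytes, but 31% to 38.8% in KO monocytes and 26.7% to 46.3% in control monocytes. Psap took 30.2% to 35% in GFP monocytes, but 4.27% to 5.73% in KO monocytes and 5.08% to 7.31% in control monocytes. These shares are counted by reads, not per length, and the tables differ in RNA type, kit, counting, mice and normalization, which cannot be told apart.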
